A study of Mus musculus with 20 samples.

Results

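The hypoxia pathway genes described here are *Car9*, carbonic anhydrase 9, and 9 other genes of that pathway, among the 29200 genes counted in the cerebellum of 304Q knock-in mice. The 10 genes were picked by symbol: the alpha subunits *Hif1a* and *Epas1* of the hypoxia-inducible factors (HIF), their partner *Arnt*, the ubiquitin ligase subunit *Vhl*, the prolyl hydroxylases *Egln1*, *Egln2* and *Egln3*, and the targets *Car9*, *Vegfa* and *Ddit4*. The choice was made with the genotype difference of *Car9* at 12 months known, so that this comparison is given for the 10 genes as a description, without a p-value. All 10 genes were in the table, and all passed the limit of a mean of 50 counts over the 20 libraries that 12153 genes passed.

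The mice carried 304 glutamine codons, as an interrupted CAACAG repeat set into both alleles of the endogenous *Atxn3* with zinc-finger nucleases (304Q/304Q), a model of spinocerebellar ataxia type 3 in which the repeat is read in every cell that uses *Atxn3*. Controls were WT/WT littermates of the same C57BL6/N strain, and 5 mice of each genotype were taken at 2 months and 5 at 12 months, all males, with 1 library per mouse. No group received a treatment, and the 304Q/304Q mice descend from 1 founder line. The labels name the wild-type alleles after ataxin-2 and the repeat as CAG, whereas the study's text describes *Atxn3*, and gene counts do not show the repeat. Between 11385380 and 27636687 reads per library were counted on genes, and all but 1 library of the 304Q/304Q mice of 2 months lay at or under 16606406. Markers of cerebellar granule and Purkinje cells were present in each library, with sums of 95999 to 124124 and 77696 to 112366 normalized counts. RNA of the choroid plexus was uneven: in 6 libraries *Ttr*, its main transcript, exceeded 1000 normalized counts. Those were 1 of the 304Q/304Q mice of 2 months, 3 WT/WT and 2 304Q/304Q mice of 12 months.

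The HIF factors are heterodimers of an alpha subunit and Arnt. With oxygen present, the Egln enzymes hydroxylate prolines of the alpha subunit, Vhl binds the hydroxylated protein, and the protein is degraded, so that HIF activity is set mainly by the stability of the protein and less by the mRNA of *Hif1a*. When oxygen is short, the dimer binds a short motif, ACGTG or GCGTG, near genes of glucose uptake, glycolysis, acid handling and vessel growth. Car9 is an enzyme of the cell surface that turns carbon dioxide into bicarbonate and protons, and its gene is a widely used reporter of HIF activity. Vegfa is the growth factor of blood vessels, Egln3 is a hydroxylase whose own gene is a HIF target, and Ddit4 (REDD1) inhibits the kinase complex mTORC1 and is induced by glucocorticoids as well as by hypoxia.

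The upstream sequences of the 3 genes whose 12-month values lay past the threshold of the adjusted p-value are printed. The motif read by HIF is the feature that the targets share, and *Egln2* was not listed above as a target. Promoter sequences were from RefSeq (GRCm38.p6), which held an entry for 9 of the 10 genes, *Epas1* being the exception. Capitals mark ACGTG or GCGTG on the strand shown, or CACGT or CACGC where the motif lies on the other strand. The stretch of *Car9* ended 1 base before its first annotated exon (chr4:43506776-43506965, plus strand), that of *Egln2* (chr7:27166803-27167052, minus strand) and of *Ddit4* (chr10:59951835-59952020, minus strand) likewise, and a site of 30 bases just before the RefSeq start of *Car9*, inside the first exon of GENCODE, is added (chr4:43506996-43507025).
Car9, upstream: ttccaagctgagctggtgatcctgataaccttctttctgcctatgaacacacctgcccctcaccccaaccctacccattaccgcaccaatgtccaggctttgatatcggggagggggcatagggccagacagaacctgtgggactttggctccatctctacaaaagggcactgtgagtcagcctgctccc
Car9, site at the start: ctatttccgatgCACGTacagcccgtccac
Egln2, upstream: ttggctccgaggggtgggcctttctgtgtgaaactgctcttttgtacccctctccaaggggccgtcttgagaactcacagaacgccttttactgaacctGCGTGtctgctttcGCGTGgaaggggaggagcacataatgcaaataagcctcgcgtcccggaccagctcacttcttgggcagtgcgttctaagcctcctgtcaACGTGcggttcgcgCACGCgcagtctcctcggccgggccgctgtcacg
Ddit4, upstream: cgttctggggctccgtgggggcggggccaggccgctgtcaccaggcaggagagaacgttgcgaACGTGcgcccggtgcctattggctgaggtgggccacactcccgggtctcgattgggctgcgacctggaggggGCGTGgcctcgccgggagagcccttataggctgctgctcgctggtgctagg
The stretch before the first exon of *Car9* held no match, and its only match in the 250 bases before the RefSeq start began 18 bases before that start. *Egln2* held 4 matches and *Ddit4* 2. Among the windows of genes tested here, 11.8% held 3 or more matches. Of the 11 windows of 250 bases that belong to the 9 genes, 9 held a match, and the window before the upstream start of *Vegfa* and that of *Vhl* did not. Among all 32851 promoter windows of this length, 38.6% held a match (ACGTG 16.6%, GCGTG 28.2%, either strand), and among the 12271 windows of genes tested here 56.1% did, so that a match is common and 1 match marks no gene as a target. A palindromic CACGTG counts on both strands, as in *Hif1a*, where 2 of the 3 matches overlap in this way.

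*Car9* (ENSMUSG00000028463, chr4:43506966-43513729, GRCm38, plus strand, 11 exon blocks) had lower means in the knock-in mice than in their WT/WT controls at both ages, and lower means at 12 than at 2 months in both genotypes. In WT/WT mice of 2 months the 5 libraries had 150, 201, 166, 243 and 140.0 normalized counts, where a normalized count is a count after scaling by the effective library size. In 304Q/304Q mice of 2 months they had 98.1, 122, 68.7, 137 and 141. The highest 304Q/304Q value of 2 months lay just above the lowest WT/WT value, so that the groups overlapped at their edges. In WT/WT mice of 12 months the values were 118, 115, 119.7, 111 and 87.7, and in 304Q/304Q mice 52.5, 57.6, 57.5, 72.0 and 57.2. At 12 months each 304Q/304Q library was below each WT/WT library. The raw counts of this gene ran from 46 to 229 per library, so that counting error is a sizeable part of its spread.

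At 2 months the log2 fold change of *Car9* was −0.67 ± 0.17 (SE), from a mean of 180.1 ± 42.3 (SD, n = 5) to 113 ± 30.1 normalized counts. This comparison shares no library with the genotype comparison at 12 months. The study names *Car9* in a cluster drawn from the libraries of both ages, however, so that the value at 2 months is no independent test. The adjusted p-value of edgeR's quasi-likelihood test was 0.313, and a difference as large in size was seen in 0.23% of the genes tested. The call at 2 months depended on the model: with surrogate variables, estimated factors of unwanted variation that the study's own model also contained, the value was −0.69 with an adjusted p of 0.0338 by edgeR and −0.68 with 0.00588 by DESeq2. By DESeq2 without them the adjusted p was 0.0854. Of 30 alternatives, only the 2 with surrogate variables passed 0.05. The share of all genes called by those 2 was not counted. The paper names the genes that it found to differ at both ages, and *Car9* is not among them. Without the 6 libraries rich in *Ttr* the value was −0.54 (adjusted p = 0.892, edgeR). With 1 library left out it ranged from −0.76 to −0.54. The smallest values came without 304Q/304Q replicate 3 or WT/WT replicate 4 of 2 months (adjusted p = 0.728 and 0.417, edgeR). With only the groups compared the adjusted p was 0.672 (edgeR). At 12 months the mean was 110.4 ± 13.1 for WT/WT and 59.4 ± 7.36 for 304Q/304Q mice (SD, n = 5). The log2 fold change was −0.89 ± 0.19. With surrogate variables this value was −1.32, and without the 6 libraries with choroid plexus RNA it was −0.89. In those 6 libraries *Car9* had 68.7 normalized counts in the 304Q/304Q mouse of 2 months, 118, 115 and 87.7 in the WT/WT mice of 12 months and 52.5 and 57.5 in the 304Q/304Q mice of 12 months, so that it was not raised where choroid plexus RNA was. From 2 to 12 months the log2 fold change was −0.71 ± 0.18 for WT/WT and −0.93 ± 0.19 for 304Q/304Q mice, given without a p-value since both use the libraries of 12 months. The change with age in WT/WT mice was −0.40 with surrogate variables in both tools, the only alternative that moved it by more than 1.5 times, and it did not pass the thresholds without the 6 libraries rich in *Ttr* (−0.64). The genotype differences of both ages differed by −0.23 ± 0.26. This value was −0.64 with surrogate variables in edgeR and −0.63 in DESeq2, −0.36 without the 6 libraries rich in *Ttr* and −0.15 after removal of each library's trend with GC content. It was −0.36 without WT/WT replicate 4 or 304Q/304Q replicate 3 of 2 months, and −0.14 to −0.15 without WT/WT replicate 5 or 304Q/304Q replicate 4 or 5 of that age. In bulk tissue, fewer cells that express a gene and less of its RNA per cell cannot be told apart.

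**Figure D1:**
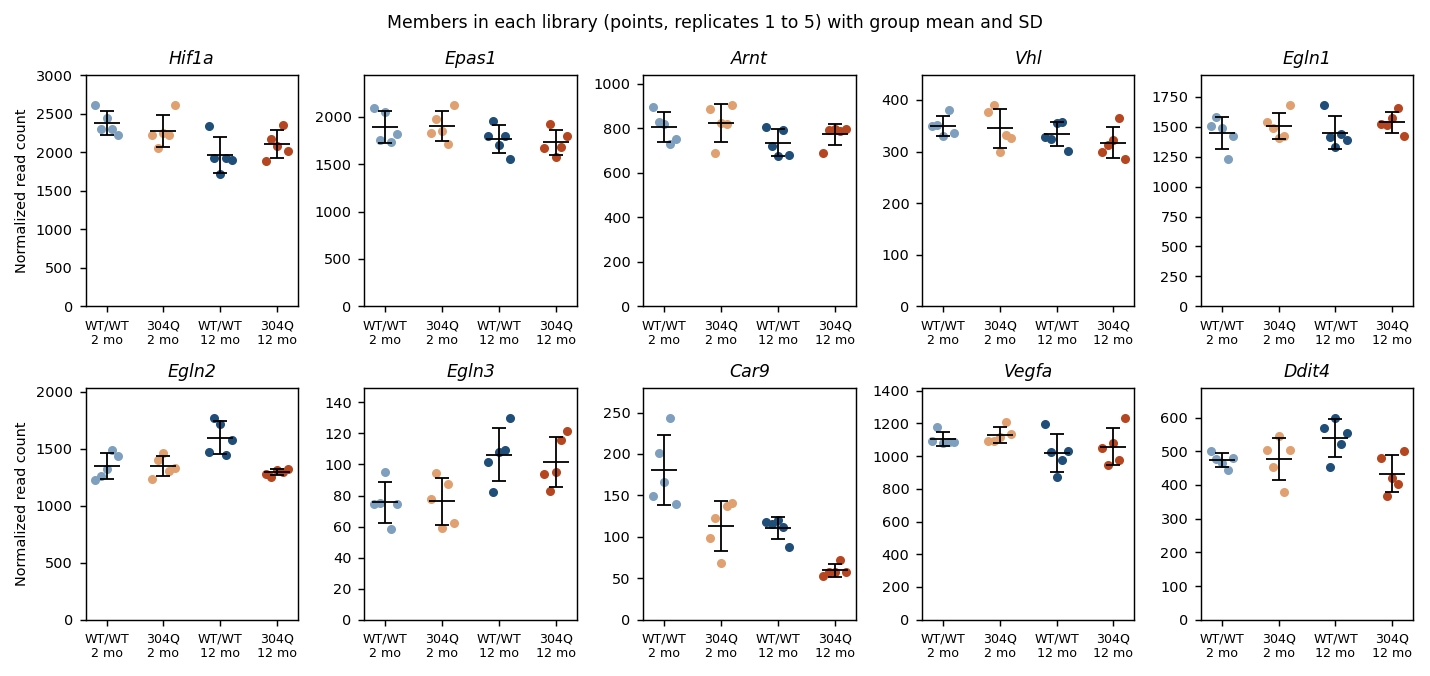
Normalized read counts (y axis, from 0) of the 10 genes in each of the 20 libraries (points, in the order of replicates 1 to 5) by genotype and age (x axis); bars give the mean ± SD of 5 mice. *Car9* has means between 180.1 in WT/WT mice of 2 months and 59.4 in 304Q/304Q mice of 12 months. *Hif1a*, *Epas1*, *Arnt*, *Vhl*, *Egln1*, *Egln3*, *Vegfa* and *Ddit4* overlap between all 4 groups.

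Antisense to *Car9* lies *Gm12454*, which shares 214 exon bases with it. It had 0 to 16.1 normalized counts per library, against 52.5 to 243 of *Car9*. The library kit marked the strand, but whether the counting used it is not given in the sources used here.

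The mRNAs of *Hif1a*, *Epas1* and *Arnt* differed by genotype by at most 0.10 on the log2 scale at either age. *Hif1a* (chr12:73901375-73947530) had 2225 to 2618 normalized counts for WT/WT and 2059 to 2619 for 304Q/304Q mice of 2 months, a log2 fold change of −0.06 ± 0.08 (adjusted p = 0.951, edgeR). At 12 months it had 1724 to 2347 for WT/WT and 1887 to 2362 for 304Q/304Q mice, a difference of 0.10 ± 0.08 on the log2 scale, which was 0.26 without the 6 libraries rich in *Ttr*. *Hif1a* fell with age in WT/WT mice by 0.28 ± 0.08 on the log2 scale (adjusted p = 0.0203, edgeR), with group ranges that overlapped and under the fold threshold. The adjusted p-value was no longer passed with surrogate variables (−0.14, adjusted p of 0.171 by edgeR and 0.151 by DESeq2), after removal of the GC trend (−0.13, adjusted p = 0.0938), or without WT/WT replicate 3 or 5 of 12 months or replicate 1 of 2 months (adjusted p of 0.0748, 0.0535 and 0.0646, edgeR). *Hif1a* has 41.3% GC, against 62.2% in *Egln2*. In 304Q/304Q mice the change with age was −0.11 ± 0.08 (adjusted p = 0.469, edgeR). *Epas1* (HIF-2 alpha, chr17:86753700-86833410) had 1551 to 2126 normalized counts over all 20 libraries, and *Arnt* (chr3:95434388-95497240) 677 to 905. Their log2 fold changes lay between −0.14 and 0.07 in the 4 comparisons of groups, with standard errors of 0.07 to 0.08. Antisense to *Hif1a*, *Gm15283* shares 330 exon bases and had at most 15.9 normalized counts.

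Of the genes of alpha subunit degradation, *Egln2* differed more by genotype than *Vhl* and *Egln1* at 12 months. A difference as large in size as that of *Egln2* was seen in 15.1% of the genes tested. *Vhl* (chr6:113623959-113631633) had 286 to 391 and *Egln1* (PHD2, chr8:124908587-124949324), the main HIF hydroxylase in most tissues, 1232 to 1683 normalized counts, and both had log2 fold changes between −0.12 and 0.09. *Egln2* (PHD1, chr7:27158658-27166802) had 1224, 1261, 1322, 1489 and 1433 normalized counts for WT/WT and 1237, 1402, 1459, 1307 and 1334 for 304Q/304Q mice of 2 months. At 12 months it had 1467, 1769, 1720, 1446 and 1580 for WT/WT and 1281, 1255, 1312, 1292 and 1324 for 304Q/304Q mice. The WT/WT libraries of 12 months thus stood above each 304Q/304Q library of that age, and the 304Q/304Q libraries lay close together with a coefficient of variation of 2.08%.

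At 2 months the log2 fold change of *Egln2* was 0.00 ± 0.07 (adjusted p = 1.0, edgeR). The 12-month difference was −0.30 ± 0.07, and the change with age was 0.25 ± 0.07 for WT/WT (adjusted p = 0.0163) and −0.06 ± 0.07 for 304Q/304Q mice (adjusted p = 0.703, both edgeR). Without the 6 libraries rich in *Ttr* the 12-month difference was −0.30 and missed the threshold of the adjusted p-value. This difference and the change with age in WT/WT mice share the WT/WT libraries of 12 months. The test of the difference between both genotype effects gave −0.30 ± 0.09 (adjusted p = 0.0896, edgeR), which passed 0.05 in 2 of 30 alternatives, without WT/WT replicate 1 of 12 months (adjusted p = 0.039) or replicate 4 of 2 months (0.0454, both edgeR). *Egln2* has 62.2% GC, above 98.4% of the genes tested. After removal of each library's trend with GC content the 12-month difference was −0.19, still past the threshold of the adjusted p-value. The change with age in WT/WT mice was then 0.06 (adjusted p = 0.56, edgeR). The 12-month difference passed the adjusted p-value in 30 of 31 alternatives. The change with age in WT/WT mice, under the fold threshold throughout, passed the adjusted p-value in 22 of 31 alternatives. Beside the removal of the GC trend it did not pass with surrogate variables (0.15, adjusted p of 0.155 by edgeR and 0.162 by DESeq2), with only the groups compared, without the 6 libraries rich in *Ttr* (0.23, adjusted p = 0.0981), or without WT/WT replicate 2 or 3 of 12 months or 1 or 2 of 2 months (adjusted p of 0.0529 to 0.0603, edgeR). *Cyp2t4* overlaps the last 11 bases of *Egln2* on the other strand and had 11.3 to 44.5 normalized counts.

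*Egln3* (PHD3, chr12:54178981-54203860), with the fewest counts of the hydroxylases, had 58.4 to 95.2 normalized counts for WT/WT and 59.3 to 94.4 for 304Q/304Q mice of 2 months, and 82.3 to 129.9 and 83.1 to 121.5 at 12 months. Its groups overlapped in each comparison. The log2 fold change with age was 0.49 ± 0.17 for WT/WT (adjusted p = 0.0579) and 0.42 ± 0.17 for 304Q/304Q mice (adjusted p = 0.144, both edgeR). DESeq2 gave the WT/WT value an adjusted p of 0.0403, and it passed both thresholds when the library of WT/WT replicate 1 or 2 of 12 months (0.50 and 0.57) or of WT/WT replicate 3 of 2 months (0.58) was left out. With at least 50 counts required in every library the adjusted p-value was also passed, under the fold threshold. The genotype differences were 0.01 ± 0.17 at 2 months (adjusted p = 0.997, edgeR) and −0.06 ± 0.16 at 12 months.

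Of the other targets, *Vegfa* (chr17:46016993-46032369) had genotype differences near 0. It had 1083 to 1177 normalized counts for WT/WT and 1091 to 1212 for 304Q/304Q mice of 2 months, and 874 to 1196 and 946 to 1233 at 12 months. Its genotype differences were 0.03 ± 0.07 at 2 months (adjusted p = 0.975, edgeR) and 0.05 ± 0.07 at 12 months, and its changes with age −0.11 ± 0.07 and −0.09 ± 0.07.

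*Ddit4* (chr10:59949669-59951834) had 499, 478, 466, 443 and 479 normalized counts for WT/WT and 505, 453, 544, 379.7 and 503 for 304Q/304Q mice of 2 months. At 12 months it had 569, 454, 599, 523 and 553 for WT/WT and 479, 367, 420.1, 403 and 499.9 for 304Q/304Q mice. WT/WT replicate 2 of 12 months, the lowest of its group, lay below 2 of the 5 304Q/304Q libraries. The log2 fold change was 0.01 ± 0.10 at 2 months (adjusted p = 0.992, edgeR), −0.31 ± 0.10 at 12 months, 0.19 ± 0.10 with age for WT/WT and −0.14 ± 0.10 for 304Q/304Q mice (adjusted p = 0.203 and 0.491, edgeR). A 12-month difference as large in size was seen in 14.3% of the genes tested. The 12-month value was −0.10 with surrogate variables in edgeR and −0.09 in DESeq2, and no longer passed the threshold. It also missed the threshold of the adjusted p-value after removal of the GC trend (−0.23), without a filter on low counts, with only the groups compared, without the 6 libraries with choroid plexus RNA (−0.41), and when any of 3 WT/WT or 3 304Q/304Q libraries of 12 months was left out (−0.26 to −0.30).

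**Figure D2:**
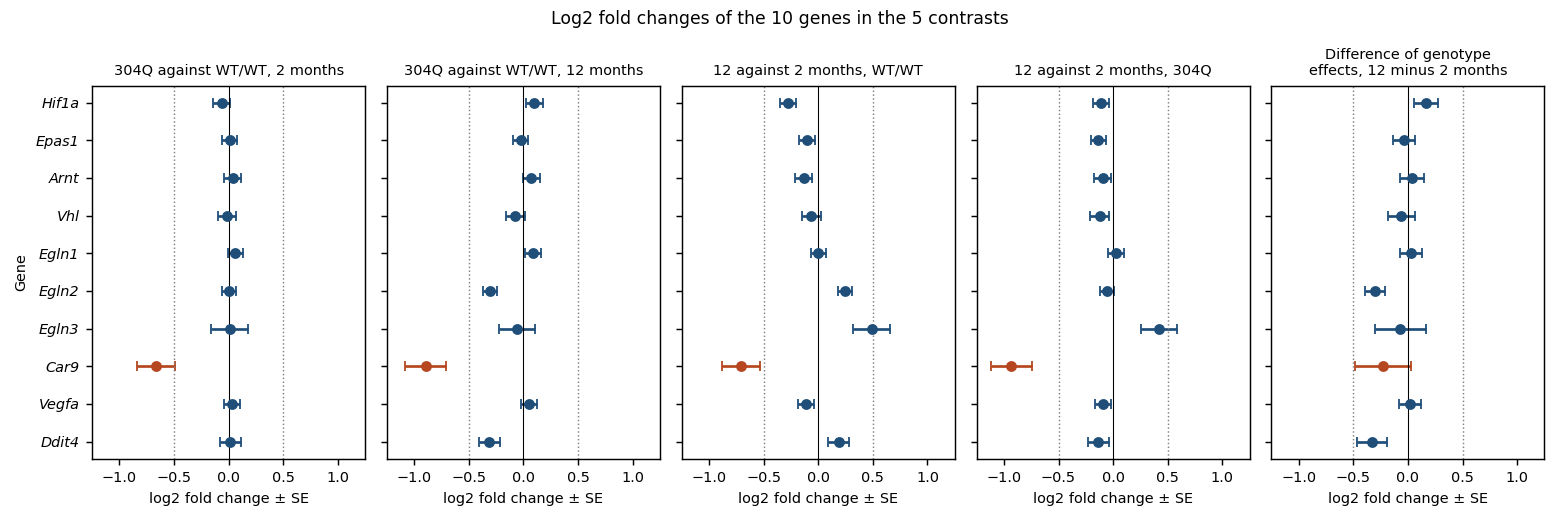
Log2 fold changes ± SE (x axis) of the 10 genes (y axis) for genotype at 2 and 12 months, for age in each genotype, and for the difference of the genotype effects; dotted lines mark the threshold of 0.5 in size. *Car9* (red) lies at −0.67, −0.89, −0.71, −0.93 and −0.23, and the other genes stay within the dotted lines, *Egln3* at 0.49 with age in WT/WT mice being the farthest out.

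Counted over the 10 genes, 0 were called at 2 months (edgeR's adjusted p ≤ 0.05 together with an absolute log2 fold change ≥ 0.5), 1 had an unadjusted p under 0.05, and DESeq2 called 0. Among all genes tested 0.00823% were called at 2 months, and 0.0494% by the adjusted p-value alone. At 12 months *Car9* was past both thresholds, and *Car9*, *Egln2* and *Ddit4*, all lower in 304Q/304Q mice, past that of the adjusted p-value. In the background, 3.09% of genes passed both thresholds and 12.5% the adjusted p-value alone. As lower in 304Q/304Q mice, 7.3% of all genes tested passed the adjusted p-value. Since the genes were chosen with this comparison known, nothing is read from these counts. *Car9* and *Egln2* had groups that did not overlap at 12 months, both lower, as did 5.43% of all genes in that direction and 8.94% in either. At 2 months none of the 10 had such groups (1.05% of all genes). With age in WT/WT mice 1 of 10 was called (2.58% of all genes), 3 of 10 passed the adjusted p-value alone (11.5%), and *Car9* alone had groups that did not overlap (6.57%, and 2.93% lower at 12 months). With age in 304Q/304Q mice *Car9* alone passed both thresholds (2.28%) and the adjusted p-value (7.26%), and no gene of the 10 had groups that did not overlap (7.8%). Both comparisons with age use the libraries of 12 months by which *Car9* was chosen, so that nothing is read from its part in these counts. For the difference of the genotype effects 0 of 10 were called by edgeR or DESeq2 (0.938% of all genes) and 0 by the adjusted p-value alone (1.95%), with 2 genes, *Egln2* and *Ddit4*, at an unadjusted p under 0.05. The share of all genes under that unadjusted limit was not counted, so that nothing is read from the unadjusted counts. The median log2 fold change of the 10 genes was 0.01 at 2 and −0.04 at 12 months for genotype, beside −0.00 over all genes at both ages.

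Levels between genes were compared per length, as RPKM, counts scaled by library and by the length of the merged exons. In WT/WT mice of 2 months *Egln2* stood at 33.8 ± 2.83 RPKM (SD, n = 5), *Hif1a* at 28.4 ± 1.86, *Egln1* at 28.3 ± 2.6 and *Epas1* at 23.8 ± 2.12, each overlapping the next. *Ddit4* at 19.0 ± 0.82 and *Vegfa* at 18.1 ± 0.67 followed, then *Vhl* at 8.2 ± 0.47, *Arnt* at 7.08 ± 0.58 and *Car9* at 5.5 ± 1.29, with *Egln3* last at 2.0 ± 0.35. The sharp steps in this order, with ranges that did not overlap, were those from *Epas1* to *Ddit4*, from *Vegfa* to *Vhl* and from *Car9* to *Egln3*. In 304Q/304Q mice of 12 months *Car9* was the last of the 10, at 1.81 ± 0.22 RPKM, next to *Egln3* at 2.69 ± 0.43, and their ranges touched.

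**Figure D3:**
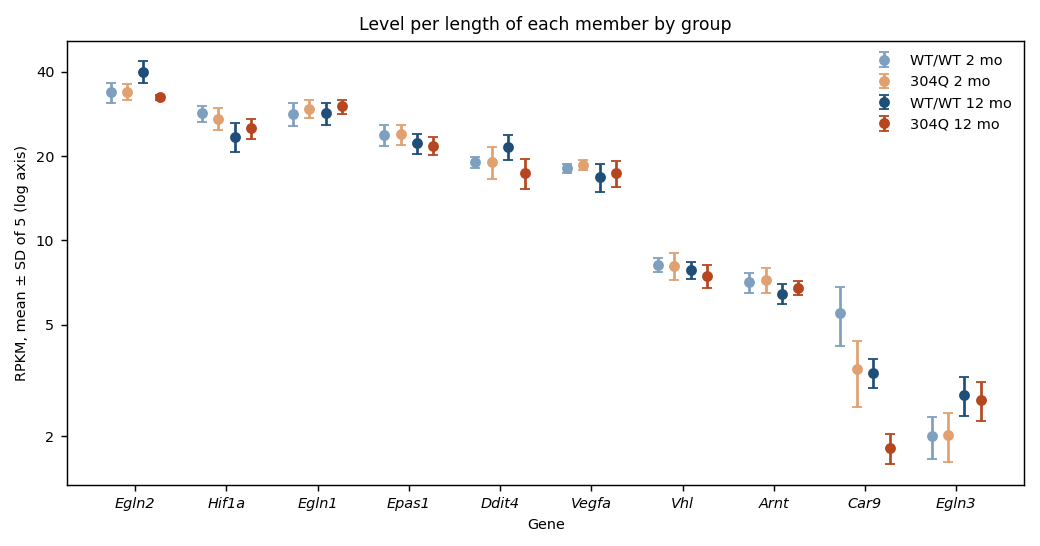
Level per length of the 10 genes in RPKM (y axis, log scale; mean ± SD of 5 mice) by group, ordered by the level in WT/WT mice of 2 months (x axis). *Car9* stands at 5.5 RPKM in WT/WT mice of 2 months and at 1.81 in 304Q/304Q mice of 12 months, there below *Egln3*, while the genes to its left keep their level to within the spread apart from *Egln2*, *Hif1a* and *Ddit4*.

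The rest of the pathway was followed in 6 lists with 71 genes, of which 61 passed the limit on counts. At 2 months 0 of the 61 genes were called for genotype by edgeR or DESeq2, 0 passed the adjusted p-value alone, and 0 had an unadjusted p under 0.05. By edgeR only 0.00823% of all genes tested were called at that age, and 0.0494% passed the adjusted p-value alone. At 12 months 1 gene was called and 10 passed the adjusted p-value alone (edgeR), 4 of them upward and 6 downward in 304Q/304Q mice, beside 3.09% and 12.5% of all genes tested, and the median log2 fold change of the 61 was −0.03. Without the 6 libraries rich in *Ttr*, which leaves 2 WT/WT and 3 304Q/304Q libraries of 12 months, 1 of the 61 passed the adjusted p-value, *Bhlhe40*, and 5.36% of all genes did. The called gene was *Hif3a* (chr7:17031507-17062427), which encodes the third alpha subunit, some isoforms of which inhibit HIF. It is a gene that the study singled out on these samples, so that its 12-month difference is described without a p-value. It had 214, 188, 154, 78.2 and 97.7 normalized counts for WT/WT and 28.8, 27.7, 33.8, 53.4 and 63.2 for 304Q/304Q mice of 12 months, a log2 fold change of −1.81 ± 0.46. Without the 6 libraries rich in *Ttr* its value was −1.26 and it was not called, and *Bhlhe40* (−0.58) was the gene called in its place. At 2 months it varied from 51.0 to 302 in WT/WT and from 23.6 to 146 in 304Q/304Q mice (−0.51 ± 0.42, adjusted p = 0.933, edgeR). The coefficient of variation of 82.4% in WT/WT mice of 2 months was far above that of *Car9* in the same libraries, 23.5%.

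Among 18 tested genes of glucose transport and glycolysis, the adjusted p-value was passed by 3 in the upward and 2 in the downward direction in 304Q/304Q mice of 12 months, all under the fold threshold. Of all genes tested, 12.5% passed it in either direction. *Pdk1* rose by a log2 fold change of 0.36 ± 0.10 (adjusted p = 0.0183, edgeR), and the glycolytic enzymes *Gpi1* and *Pfkp* rose by 0.18 and 0.15 (adjusted p = 0.0344 and 0.0388). The glucose transporter *Slc2a1* changed by −0.33 ± 0.11 and lactate dehydrogenase *Ldha* by −0.14 ± 0.05 (adjusted p = 0.0437 for both). *Ldha* also fell with age, by 0.22 for WT/WT and by 0.31 for 304Q/304Q mice on the log2 scale (adjusted p = 0.00489 and 7.78e-05, edgeR). The list thus held changes in both directions, with a median of −0.06 at 12 months. Of the 31 alternatives, *Pdk1* passed the adjusted p-value in 28, *Pfkp* in 21, *Gpi1* in 20, *Slc2a1* in 18 and *Ldha* in 9, and none of them passed it without the libraries rich in *Ttr*.

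Of 16 tested genes among the other widely used targets, *Ndrg1*, a stress-responsive gene of myelinating cells, fell by 0.41 ± 0.09 on the log2 scale and the transcriptional repressor *Bhlhe40* by 0.40 ± 0.08 (adjusted p = 0.00349 and 0.00103, edgeR), while *Tfrc*, the transferrin receptor, rose by 0.42 ± 0.12 (adjusted p = 0.0182) at 12 months. *Tfrc* was the gene of the 6 lists called with age, at −1.05 ± 0.12 for WT/WT and −0.63 ± 0.11 for 304Q/304Q mice (adjusted p = 3.01e-06 and 0.000596, edgeR). The median of this list was 0.04 at 12 months, where 12.5% of all genes tested passed the adjusted p-value. At that age *Bhlhe40* passed the adjusted p-value in each of the 31 alternatives, *Ndrg1* in 30, all but that without the libraries rich in *Ttr*, and *Tfrc* in 22. None of the 4 partners of the VHL ubiquitin ligase and none of 7 VEGF ligands and receptors passed the adjusted p-value for genotype at 12 months (edgeR), and *Vegfb* was higher at 12 than at 2 months in WT/WT mice (0.36 ± 0.08, adjusted p = 0.00406). On the branch on which Ddit4 acts, *Sesn1*, which also restrains mTORC1, fell by 0.25 ± 0.06 on the log2 scale (adjusted p = 0.00932), the only one of 8 past that threshold at 12 months, and passed it in 28 of 31 alternatives, the exceptions being surrogate variables in both tools and the fit without the libraries rich in *Ttr*. For the difference of the genotype effects 0 of the 61 genes were called by edgeR, beside 0.938% of all genes tested. DESeq2 called 0 and passed 1 by the adjusted p-value alone, and its share over all genes was not counted. By edgeR 8 had an unadjusted p under 0.05. The share of all genes under that unadjusted limit was not counted, so that nothing is read from this 8 or from the 0 at 2 months.

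*Car9* was not the sole carbonic anhydrase with a lower value at 12 months. Of 15 other family members, 10 were tested, none was called by edgeR or DESeq2 for genotype at 12 months, and 5 were lower by the adjusted p-value alone, beside 7.3% of all genes tested, with a list median of −0.31. *Car2*, *Car4* and *Car7* passed in each of the 31 alternatives, *Car11* in 29 and *Car14* in 12. *Car2*, a cytosolic enzyme abundant in oligodendrocytes, fell by 0.44 ± 0.07, from a mean of 2133 to 1570.0 normalized counts (adjusted p = 5.33e-05, edgeR). *Car7*, a cytosolic enzyme of neurons, fell by 0.44 ± 0.07 (8.13e-05 by the same test), the membrane-bound *Car4* and *Car14* by 0.36 and 0.39 (0.000703 and 0.0445), and *Car11*, a family member without the catalytic activity, by 0.25 (0.0147). *Car8*, another member without it and abundant in Purkinje cells, stood at −0.24 ± 0.08 (adjusted p = 0.0501). At 2 months 0 of the 10 passed the adjusted p-value by edgeR, beside 0.0494% of all genes tested. DESeq2 passed 1, and its share over all genes was not counted. *Car4* also fell with age, by 0.42 for WT/WT and 0.68 for 304Q/304Q mice (adjusted p = 0.000295 and 2.99e-07, edgeR). *Car7* was the one whose genotype effect differed between ages by the adjusted p-value (−0.39, adjusted p = 0.0315). *Car12*, like *Car9* a membrane enzyme induced by HIF, had 46 or more raw counts in each of the 6 libraries rich in *Ttr* and at most 24 in each other, so that its level moved with the share of choroid plexus RNA.

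**Figure D4:**
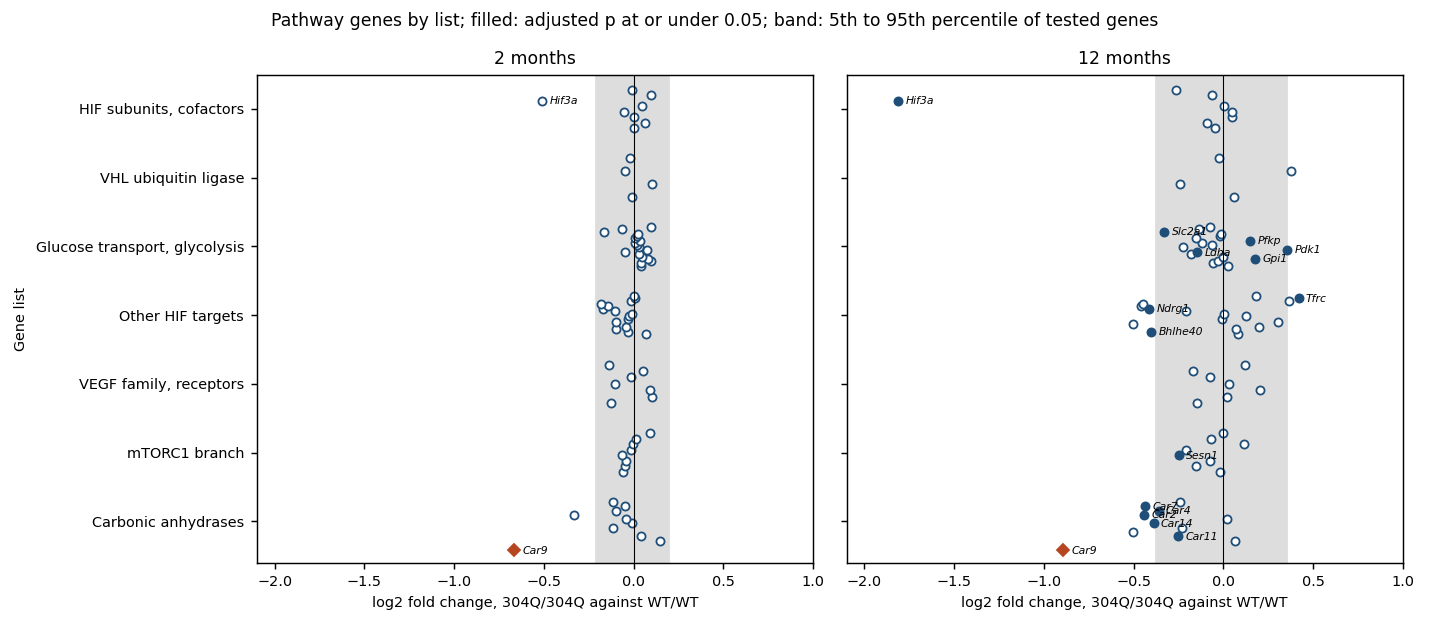
Log2 fold changes (x axis) of 304Q/304Q against WT/WT mice at 2 months (left) and 12 months (right) for the tested genes of 7 lists (y axis); filled points have an adjusted p of at most 0.05, the grey band spans the 5th to the 95th percentile of all genes tested, and the red diamond is *Car9*. At 12 months *Hif3a* (−1.81) and *Car9* (−0.89) lie farthest to the left, the glycolysis genes lie on both sides of 0, and 5 carbonic anhydrases are filled on the lower side; *Car12* at 2 months (1.41) lies beyond the axis.

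Several marker lists differed between the genotypes at 12 months beside these genes, where 12.5% of all genes tested passed the adjusted p-value and 7.3% as lower. Of 8 Purkinje cell markers 7 were lower by the adjusted p-value in edgeR, with sums of 102124 to 110301 normalized counts for WT/WT and 77696 to 85547 for 304Q/304Q mice. Of 10 markers of mature oligodendrocytes 5 were lower (75173 to 85587 against 49380 to 68295), and of 10 tested glucocorticoid-responsive genes 8 (9535 to 14117 against 6208 to 7602 over 12 genes). Of 5 blood genes 4 were lower (1649 to 3503 against 1367 to 1589), and of 10 markers of astrocytes and Bergmann glia 2 were (55435 to 58488 against 52160 to 54237). Of these 10 markers 7 had negative and 3 positive log2 fold changes (*Gfap*, *Aqp4* and *Sox9*), and *Slc1a3* had the largest part of the sum. Of 10 markers of endothelial cells 1 was lower (3250 to 3605 against 3096 to 3490), none of 5 of pericytes or 10 of granule cells passed, and 1 of 8 tested of microglia was higher. Immediate early genes summed to 5859 to 10064 for WT/WT and 2706 to 8406 for 304Q/304Q mice, with 1 higher and 1 lower of 10 tested. No marker of these lists was at 0 in all libraries. The part of these cell types and gene classes in the values of *Car9*, *Egln2*, *Ddit4* and the other carbonic anhydrases was not tested.

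Over the 20 libraries, the log2 CPM (library-scaled counts, prior count 2) of *Car9* was most like that of *Cplx2* (r = 0.93) and of *Col27a1*, *Grik3* and *Camkk2* (each 0.89), none of them on the pathway lists. These coefficients include the group differences, and the 20 points share the TMM scaling. After each group's mean was subtracted the nearest genes were *Slc16a13* (0.78), *Abcd3* (0.77), *Casp9* (0.74), *Rhbdl3* and *Maneal* (both 0.68), so that the order rested on the groups. Among the 10 genes, *Car9* followed *Vhl* with r = 0.54 and *Ddit4* with r = −0.46 within groups, and the other 7 between −0.02 and 0.19. *Ddit4* was most like *Plekhf1* (0.88), *Klf2* (0.86), *Tsc22d1* (0.85), *Sik1* (0.83) and *Adipor1* (0.82). Within groups, *Plekhf1* (0.86) and *Klf2* (0.80) stayed nearest, followed by *Zfp655* (0.78), *Mtus1* (0.77) and *Tsc22d1* (0.76). *Vegfa* was most like *Otud3* and *Zfp445* (both 0.85), *Tmem181b-ps* (0.80), *Flna* (0.79) and *Zfp236* (0.75), and within groups like *Otud3*, *Tmem181b-ps* and *Zfp445* (each 0.81), *Zfp446* (0.77) and *Zfp236* (0.73).

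**Figure D5:**
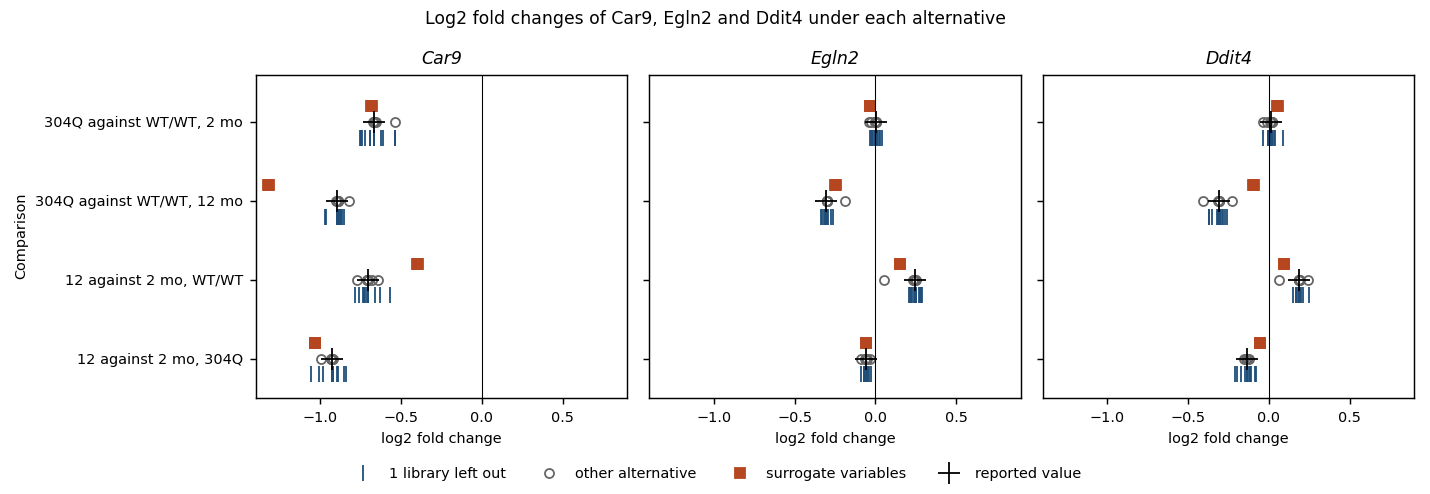
Log2 fold changes (x axis) of *Car9*, *Egln2* and *Ddit4* in the 4 comparisons of groups (y axis) under each alternative processing; the cross is the reported value, ticks leave out 1 library, squares use surrogate variables and open circles are the other alternatives. *Car9* stays below 0 throughout, between −1.32 and −0.83 for genotype at 12 months, while *Ddit4* spans −0.41 to −0.09 there.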

How the data were processed

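PolyA-enriched RNA of 20 mouse cerebella was sequenced, and the authors used STAR (2.4.5b per the labels' processing notes) with GRCm38 and Rsubread to obtain gene counts, deposited unnormalized for 29200 Ensembl genes. Strand use in the counting is not given in the sources used here. The counts were scaled by TMM and fitted with edgeR 4.0.16 in R 4.3.3, as 1 model with a mean per group over all 20 libraries and 12153 genes, those averaging 50 counts or more (99.3% of counts). P-values were adjusted over these genes by Benjamini-Hochberg. Called genes had an adjusted p ≤ 0.05 together with an absolute log2 fold change ≥ 0.5, the study's thresholds. GENCODE M21 gave symbols, positions and exon lengths. The labels name no batch, but the letter in the libraries' description codes differs between the 4 groups and is shared within each, so that a batch with these bounds cannot be told apart from genotype and age. The labels do not say whether mice of a group were littermates, and p-values measure the spread between these libraries (common biological coefficient of variation 0.113), to which counting adds for genes near 50 counts. Replicates differed by more than sampling noise (chi-square of at least 4.43 times its degrees of freedom).

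The genes, lists and tests were chosen with earlier results of these data known. Genes named are the 10 genes, overlapping genes, *Hif3a*, up to 4 called genes per pathway list and contrast, and the 5 genes most like *Car9*, *Ddit4* and *Vegfa*, of which 1 is not reported here; the pathway and family genes past the adjusted p-value alone were chosen with their values in view. As alternatives served DESeq2 1.42.0, 3 surrogate variables (sva 3.50.0), other scaling and filters, fits of only the groups compared, a replicate block, no fold threshold and each library left out; removal of GC trends and leaving out the 6 libraries with over 1000 normalized counts of *Ttr* were added after seeing the data. On simulated data for the 12-month comparison, with 12153 genes, edgeR called 197 of 200 genes changed 2-fold, with 4 others, and DESeq2 197 with 7 others.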

Additional observations from a re-analysis of the deposited data

Results flagged for a closer look

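In 4 of the 40 sets of 5 libraries (10 genes in 4 groups) 1 library stood apart from its group by Dixon's criterion, in which the gap to the nearest library is divided by the range and 0.71 is the limit; chance gives about 1 in 20. *Car9* was low in WT/WT replicate 5 of 12 months, at 87.7 normalized counts beside 111 to 119.7 (ratio 0.738), a library also rich in *Ttr*, and high in 304Q/304Q replicate 4 of 12 months, at 72.0 beside 52.5 to 57.6 (ratio 0.738). Both lie on the side that narrows the genotype difference, and the groups did not overlap with them included. *Arnt* was low in 304Q/304Q replicate 1 of 12 months, at 689.6 beside 786 to 798 (ratio 0.892). *Vegfa* was high in WT/WT replicate 2 of 2 months, at 1177 beside 1083 to 1093 (ratio 0.901). None of the 10 genes had a genotype effect that differed between the ages by the adjusted p-value of edgeR with all libraries in the fit; that of *Egln2* (adjusted p = 0.0896) passed when WT/WT replicate 1 of 12 months or replicate 4 of 2 months was left out (0.039 and 0.0454, edgeR).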

How the results depend on the processing

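Over 1535 values of the 10 genes under 31 alternatives, 1456 kept their direction and their call by both thresholds together, 71 changed sign, none of them called, and 8 gained or lost that call. By the adjusted p-value alone 40 values crossed 0.05, 31 of them losing it and 9 gaining it, in 8 pairs of gene and comparison, among them *Ddit4* at 12 months (12 lost), *Egln2* (9) and *Hif1a* (6) with age in WT/WT mice. Under most alternatives the share of all genes called was not counted, so that nothing is read from the counts that follow. The number of the 10 genes called for genotype at 2 months was 1 in place of 0 with surrogate variables in DESeq2 and in edgeR. For genotype at 12 months it was 3 by the adjusted p-value alone and 0 when each library had to hold at least 50 counts, a filter that removes *Car9*; the same filter gave 0 in place of 1 for age in 304Q/304Q and in WT/WT mice. For age in WT/WT mice the number was 3 by the adjusted p-value alone, 0 with surrogate variables in DESeq2 and in edgeR and 0 without the 6 libraries rich in *Ttr*, and it ranged from 1 to 2 when 1 library was left out. Of the pathway genes, 10 in place of 1 passed at 12 months by the adjusted p-value alone and 0 with at least 50 counts in every library, which removes *Hif3a*, 1 without the libraries rich in *Ttr*, which was *Bhlhe40* (−0.58) and no longer *Hif3a*, and 1 to 3 with 1 library left out, the added genes being *P4ha1* (without WT/WT replicate 2 or 4 or 304Q/304Q replicate 5 of 12 months) and *Tfrc* (without the last). Apart from those of the filter and the missing fold threshold, the cause of these changes was not tested. Replicate numbers did not pair the samples (correlations of same-numbered deviations −0.323 to 0.551), and with the replicate block 0, 1, 1, 1 and 0 of the 10 genes were called for genotype at 2 and 12 months, age in WT/WT, age in 304Q/304Q and the difference, as without it. *Car9* had 46 to 229 raw counts per library, which limits its precision.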
